A study of Mus musculus with 2 samples.

Results

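The mGluR6 cascade is the signalling chain with which ON bipolar cells of the retina read the glutamate that photoreceptors release. Its 9 genes were followed here across the nuclei of 1 mouse eye section. They were taken by symbol from the 32285 features of the count matrix, and all 9 were present: Grm6, Trpm1, Gpr179, Nyx, Lrit3, Rgs7, Rgs11, Gnao1 and Gnb5. The study set mice heterozygous for Prph2C213Y on a C57BL/6J background beside wild types of the same age and sex, and took its spatial data at 6 months from fresh-frozen tissue of untreated animals. The section analysed, named T1, was 10 µm thick and carries no genotype in the labels, so no comparison between genotypes was made. The labels list 2 libraries of it, 1 for expression and 1 for spatial barcodes, and no barcode is tied to either. Every comparison is between classes of nuclei within this section.

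Photoreceptors release glutamate in darkness. ON bipolar cells bind it with the metabotropic receptor mGluR6, whose G protein, Go, then keeps the cation channel TRPM1 closed. When light lowers glutamate, a complex of regulator of G protein signalling (RGS) proteins with the beta subunit Gβ5 speeds the shut-off of Go, and TRPM1 opens. Rod bipolar cells and ON cone bipolar cells work in this way, whereas OFF cone bipolar cells use ionotropic glutamate receptors. Loss of Grm6, Trpm1, Gpr179, Nyx or Lrit3 is a known cause of complete congenital stationary night blindness. Trpm1 was first described in melanocytes, the pigment cells derived from the neural crest.

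Of 17285 barcodes, 16867 were kept as nuclei, with a median of 1811 UMIs (unique molecular identifiers, each standing for 1 counted RNA molecule). Classes were named from marker genes that did not include the cascade, and the cascade genes were also left out of the clustering. Because the names were rebuilt from markers, each class is called "-like". Among 1591 bipolar nuclei, 401 were rod bipolar-like (median 3247 UMIs), 461 ON cone bipolar-like (2999 UMIs) and 448 OFF cone bipolar-like (3135 UMIs), while 281 stayed unnamed. Isl1 and Grik1, genes that the field uses for these types, were among the markers that named them. Their levels therefore describe the labels and do not test them. Isl1, a transcription factor of ON bipolar cells, was at 360 CPM (UMIs of the gene per 1000000 UMIs of the class) in rod bipolar-like nuclei and at 213 to 422 CPM in the 6 ON cone bipolar-like subclusters, against 9.92 to 77.7 CPM in the 5 OFF subclusters. Grik1, a kainate receptor subunit of OFF bipolar cells, was at 297 CPM in rod bipolar-like nuclei and at 23.7 to 591 CPM in ON subclusters, against 1109 to 17359 CPM in OFF subclusters. The nuclei lay in 4 ring-shaped tissue pieces of 4498, 4104, 3700 and 4565 nuclei, although the labels speak of 1 section of 1 eye. The pieces are given below as pieces 1 to 4, as a spread within this data set and not as replicates. Scrublet, a doublet caller, marked 0 of 16867 nuclei and is taken not to have worked, so doublets remain among them.

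Grm6 encodes mGluR6, the receptor itself (ENSMUSG00000000617, mm10 chr11:50850369-50866208). It was high in both ON types and low in OFF cone bipolar-like nuclei. Grm6 reached 824, 968, 950 and 922 CPM in rod bipolar-like nuclei of pieces 1 to 4 and 861, 917, 847 and 893 CPM in ON cone bipolar-like nuclei, against 86.3, 35.7, 74.7 and 76.4 CPM in OFF cone bipolar-like nuclei. The pieces of the ON types and those of the OFF type did not overlap, and the ranges of the rod bipolar-like and ON cone bipolar-like nuclei did. Pooled over pieces, the 1150 Grm6 UMIs of rod bipolar-like nuclei came to 909 CPM (exact Poisson 95% interval 857 to 963). The 1272 UMIs of ON cone bipolar-like nuclei came to 879 CPM (831 to 928), and the 104 UMIs of OFF cone bipolar-like nuclei to 69.7 CPM (56.9 to 84.4). Intervals and floors throughout cover counting error only. A difference is called here where the interval of the higher class began at 2 times the end of the other interval or above, with 20 or more UMIs in both classes together. Grm6 was called higher in rod bipolar-like than in OFF cone bipolar-like nuclei, at 13.0-fold (interval of the ratio 10.7 to 16.1). It was also called higher in ON cone bipolar-like than in OFF cone bipolar-like nuclei, at 12.6-fold (10.3 to 15.5). Rod bipolar-like over ON cone bipolar-like gave a ratio of 1.03 (0.954 to 1.12), with no call.

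At least 1 Grm6 UMI was present in 86.8% of rod bipolar-like and 81.1% of ON cone bipolar-like nuclei, against 8.93% of OFF cone bipolar-like nuclei. In rod-like nuclei, which should lack the receptor and were shallower (median 1049 UMIs), the share was 0.298%. With each nucleus thinned to 500 UMIs the shares were 33.1% in rod bipolar-like and 34.5% in ON cone bipolar-like nuclei, against 2.05% in OFF cone bipolar-like nuclei. Rod-like nuclei thinned in the same way had 0.0967%. Thinning left out 5 rod bipolar-like, 9 ON cone bipolar-like, 8 OFF cone bipolar-like and 206 rod-like nuclei of fewer UMIs. The level in OFF cone bipolar-like nuclei was the least stable of the 3: it was 40.9 CPM after thinning and 110 CPM when the cascade genes were kept for clustering. Outside the bipolar types Grm6 ran from 2.28 CPM in rod-like nuclei up to 60.1 CPM (34.4 to 97.6, 16 UMIs) in surface epithelium-like nuclei, an interval that overlapped the OFF type's. Those UMIs lay in 2 of the 59 surface epithelium-like nuclei. In vascular endothelial-like nuclei it had 0 UMIs, which allows up to 4.46 CPM.

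Trpm1 encodes the channel that the cascade closes (ENSMUSG00000030523, mm10 chr7:64153835-64269772). Of all classes it was highest in rod bipolar-like nuclei, with 9820, 8698, 10195 and 9912 CPM in pieces 1 to 4. ON cone bipolar-like nuclei had 3225, 3184, 3585 and 3343 CPM. OFF cone bipolar-like nuclei had 1494, 1168, 1318 and 1101 CPM. The ranges of the 3 types were apart in every piece. Trpm1 was called higher in rod bipolar-like than in OFF cone bipolar-like nuclei (9742 against 1287 CPM pooled, 7.57-fold, 7.22 to 7.95). ON cone bipolar-like nuclei had 3313 CPM and exceeded OFF cone bipolar-like nuclei 2.58-fold (2.44 to 2.72), which also passed. Rod bipolar-like nuclei exceeded ON cone bipolar-like nuclei 2.94-fold (2.84 to 3.04), again a call. The call of ON over OFF cone bipolar-like nuclei was lost with a ratio of bounds of 3 and when nuclei of at least 500 genes were used, where ON cone bipolar-like nuclei had 2178 CPM. It was also lost without the 3 subclusters named on a margin of 1 marker, at 2307 against 1706 CPM. The level rested on most nuclei of these types: a UMI was seen in 98.8% of rod bipolar-like and 95.7% of ON cone bipolar-like nuclei, against 71.2% of OFF cone bipolar-like nuclei. A rod bipolar-like nucleus held a median of 30 Trpm1 UMIs, an ON cone bipolar-like nucleus 8 and an OFF cone bipolar-like nucleus 2. In each nucleus thinned to 500 UMIs the shares were 97.2% and 71.5% in the ON types, against 34.5% in OFF cone bipolar-like nuclei, 0.909% in rod-like and 0.766% in cone-like nuclei.

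**Figure D1:**
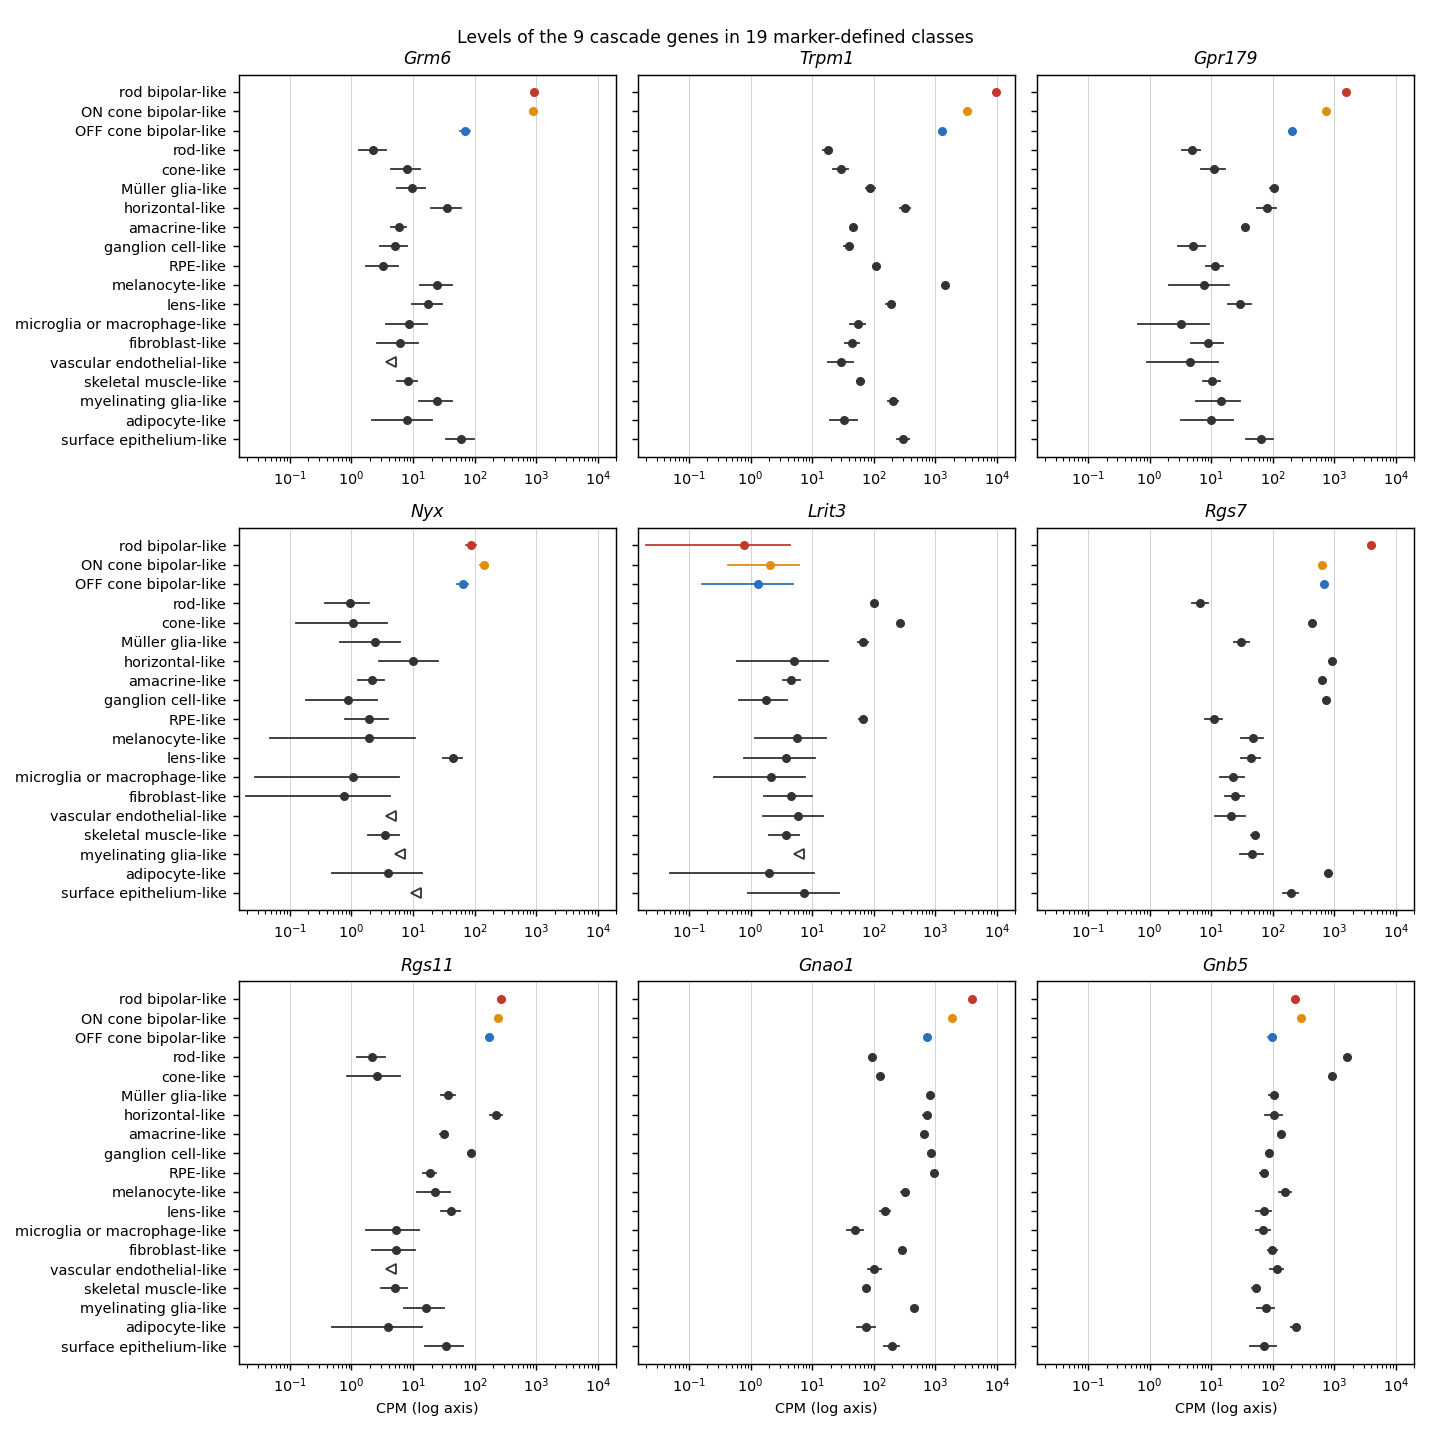
Pooled level of each of the 9 cascade genes (horizontal axis, CPM, log scale) in 19 named classes of nuclei (vertical axis, the 3 bipolar types on top). Points are pooled levels with exact Poisson 95% intervals, and open triangles mark the floor of 3 UMIs where a class had none; Grm6, Trpm1 and Gpr179 stand highest in rod bipolar-like nuclei, while Lrit3 stands highest in cone-like nuclei at 267 CPM and Gnb5 in rod-like nuclei at 1585 CPM.

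The promoters of Trpm1 are shown because it is the channel of the cascade and was also high in melanocyte-like nuclei (below). The reference lists 2 starts for it, and that of Grm6 is given for comparison. RefSeq, on GRCm38.p6 (the assembly behind mm10), gave 9 starts for 8 of the 9 genes, each with 250 bases before and 50 bases after the start, and none for Rgs11. All 3 sequences lie on the plus strand, at chr7:64153585-64153884 and chr7:64185209-64185508 for Trpm1 and at chr11:50850435-50850734 for Grm6. Capitals mark matches to motifs searched on both strands: CACGTG, the E-box; CATGTG, the core of the M-box that the melanocyte transcription factor MITF binds; and TAATCC, the site of the photoreceptor and bipolar factors CRX and OTX2. Each run of capitals is 1 match and none overlapped another.
Trpm1 start 1: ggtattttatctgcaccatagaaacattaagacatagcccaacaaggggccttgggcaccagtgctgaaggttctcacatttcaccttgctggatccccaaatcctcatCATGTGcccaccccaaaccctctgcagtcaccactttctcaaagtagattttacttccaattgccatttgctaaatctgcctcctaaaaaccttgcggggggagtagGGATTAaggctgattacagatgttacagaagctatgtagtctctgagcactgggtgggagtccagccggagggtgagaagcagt
Trpm1 start 2: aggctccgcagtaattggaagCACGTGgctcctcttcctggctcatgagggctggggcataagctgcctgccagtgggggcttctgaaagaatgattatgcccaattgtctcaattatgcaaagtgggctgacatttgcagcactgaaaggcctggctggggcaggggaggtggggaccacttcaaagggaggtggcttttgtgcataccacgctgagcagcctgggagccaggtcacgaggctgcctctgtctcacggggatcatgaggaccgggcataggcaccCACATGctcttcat
Grm6 start 1: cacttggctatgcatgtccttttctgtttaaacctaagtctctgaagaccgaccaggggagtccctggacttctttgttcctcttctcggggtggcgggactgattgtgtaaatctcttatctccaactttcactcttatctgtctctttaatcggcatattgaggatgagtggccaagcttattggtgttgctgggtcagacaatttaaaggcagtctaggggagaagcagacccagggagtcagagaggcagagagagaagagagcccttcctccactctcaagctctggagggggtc
The upstream start of Trpm1 held 1 match to CATGTG and 1 to TAATCC. Its downstream start held 1 match to CACGTG and 1 to CATGTG, and the Grm6 start held none of the motifs. Of 32851 promoters of the same length, 7.15% held CACGTG, 14.2% held CATGTG and 7.06% held TAATCC. Among the other members, CACGTG was found at Rgs7, CATGTG at Gnao1 and TAATCC at Gnb5, with no match at Gpr179, Nyx or Lrit3. The counts are per gene, so they do not say which start was used in which class.

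Gpr179 encodes an orphan receptor that anchors RGS proteins at the dendritic tips of ON bipolar cells (ENSMUSG00000070337, mm10 chr11:97332109-97352356). It followed the same order as Trpm1. In pieces 1 to 4 it was at 1607, 1609, 1430 and 1604 CPM in rod bipolar-like nuclei, at 769, 716, 707 and 753 CPM in ON cone bipolar-like nuclei, and at 270, 158, 168 and 203 CPM in OFF cone bipolar-like nuclei. Rod bipolar-like nuclei were called higher than OFF cone bipolar-like nuclei at 7.65-fold (6.77 to 8.66), and ON cone bipolar-like nuclei at 3.63-fold (3.20 to 4.14). Rod bipolar-like nuclei also exceeded ON cone bipolar-like nuclei 2.10-fold (1.95 to 2.27), which did not reach the threshold for a call although the pieces did not overlap. Thinned to 500 UMIs, 50.8% of rod bipolar-like and 30.5% of ON cone bipolar-like nuclei had a Gpr179 UMI, against 6.14% of OFF cone bipolar-like nuclei.

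Nyx encodes nyctalopin, a leucine-rich repeat protein that holds TRPM1 at the dendritic tips (ENSMUSG00000051228, mm10 chrX:13461090-13492820). It gave few counts, and its order was another one: ON cone bipolar-like nuclei were on top. In pieces 1 to 4 it was at 138, 161, 117 and 149 CPM in ON cone bipolar-like nuclei, at 68.9, 91.6, 72.2 and 125 CPM in rod bipolar-like nuclei, and at 90.8, 59.4, 34.7 and 70.5 CPM in OFF cone bipolar-like nuclei. Pooled, the 205 UMIs of ON cone bipolar-like nuclei were 142 CPM (123 to 162), while the 111 UMIs of rod bipolar-like nuclei were 87.7 CPM (72.2 to 106) and the 97 UMIs of OFF cone bipolar-like nuclei 65.0 CPM (52.7 to 79.3). The ratio of ON over OFF cone bipolar-like nuclei was 2.18 (1.70 to 2.80) and that of rod bipolar-like over OFF cone bipolar-like nuclei 1.35 (1.02 to 1.79), both without a call. Rod bipolar-like nuclei stood below ON cone bipolar-like nuclei, at a ratio of 0.619 (0.487 to 0.784), also without a call.

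Lrit3 encodes a leucine-rich repeat protein that photoreceptors supply across the synapse and that brings nyctalopin and TRPM1 to the dendritic tips of the bipolar cell (ENSMUSG00000093865, mm10 chr3:129783941-129804136). It was nearly absent from the counts of bipolar nuclei: 1 UMI in rod bipolar-like, 3 in ON cone bipolar-like and 2 in OFF cone bipolar-like nuclei. Between bipolar types it was therefore not tested. Its highest level was in cone-like nuclei, with 333, 206, 250 and 326 CPM in pieces 1 to 4 and 267 CPM pooled (244 to 292), and a UMI in 54.8% of nuclei (median 2418 UMIs). Rod-like nuclei followed at 105, 94.9, 85.1 and 112 CPM, and 101 CPM pooled (93.7 to 108). The pieces of cone-like and rod-like nuclei did not overlap. Thinned to 500 UMIs, 16.9% of cone-like and 5.07% of rod-like nuclei had a Lrit3 UMI. The next classes were RPE-like nuclei (retinal pigment epithelium) at 67.0 CPM (58.8 to 75.9) and Müller glia-like nuclei at 67.0 CPM (55.1 to 80.6). Their intervals overlapped. In both of them the neighbouring gene Rrh was also present, at 227 CPM in RPE-like and 178 CPM in Müller glia-like nuclei, against 4.75 CPM in the cone-like class and 3.21 CPM in the rod-like class. RefSeq places a non-coding gene, Gm36130, across both genes, and the sources used here do not give the strand setting of the counting. The part of Rrh in the Lrit3 counts of these classes was not tested. RPE-like nuclei came from 2 clusters that differed, with Lrit3 at 73.5 CPM in cluster 38 and 18.5 CPM in cluster 4.

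Gnao1 encodes the alpha subunit of Go (ENSMUSG00000031748, mm10 chr8:93810153-93969388). It was graded across the 3 types, with 3930, 3763, 3847 and 4207 CPM in rod bipolar-like nuclei of pieces 1 to 4, then 1969, 1750, 1876 and 1967 CPM in ON cone bipolar-like nuclei and 804, 657, 720 and 752 CPM in OFF cone bipolar-like nuclei. It was called higher than in OFF cone bipolar-like nuclei in rod bipolar-like nuclei, at 5.35-fold (5.01 to 5.71), and in ON cone bipolar-like nuclei, at 2.57-fold (2.40 to 2.76). With a ratio of bounds of 3 the ON cone bipolar-like call was lost. The step from rod bipolar-like to ON cone bipolar-like nuclei, at 2.08-fold (1.98 to 2.18), was not called. Unlike Grm6, Gnao1 was detected in 73.4% of OFF cone bipolar-like nuclei. The non-coding gene 4930488L21Rik overlaps it and was at 43.5 CPM in rod bipolar-like nuclei and 8.04 CPM in OFF cone bipolar-like nuclei.

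Rgs7 and Rgs11 encode the RGS proteins that speed the shut-off of Go (ENSMUSG00000026527, mm10 chr1:175059076-175492862, and ENSMUSG00000024186, mm10 chr17:26202527-26211324). Rgs7 separated rod bipolar-like nuclei from both cone bipolar types rather than ON from OFF. It was at 4417, 3405, 4017 and 3758 CPM in rod bipolar-like nuclei of pieces 1 to 4, at 563, 613, 713 and 661 CPM in ON cone bipolar-like nuclei, and at 695, 648, 760 and 637 CPM in OFF cone bipolar-like nuclei. The ratio of rod bipolar-like to ON cone bipolar-like nuclei was 6.32 (5.89 to 6.79) and that of rod bipolar-like to OFF cone bipolar-like nuclei 5.76 (5.39 to 6.17), both called. That of ON to OFF cone bipolar-like nuclei was 0.911 (0.832 to 0.997), with no call.

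Rgs11 had no call between any pair of the types. In pieces 1 to 4 it was at 278, 235, 277 and 263 CPM in rod bipolar-like nuclei, at 244, 275, 247 and 172 CPM in ON cone bipolar-like nuclei, and at 207, 190, 144 and 138 CPM in OFF cone bipolar-like nuclei. The ratio to OFF cone bipolar-like nuclei was 1.55 (1.32 to 1.83) for rod bipolar-like and 1.38 (1.17 to 1.63) for ON cone bipolar-like nuclei. Both intervals lie above 1, but the intervals of the levels were less than 2-fold apart.

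Gnb5 encodes Gβ5, the obligate partner of RGS7 and RGS11 and, in photoreceptors, of RGS9 (ENSMUSG00000032192, mm10 chr9:75306288-75345923). In pieces 1 to 4 it was at 278, 283, 326 and 296 CPM in ON cone bipolar-like nuclei, at 257, 196, 231 and 237 CPM in rod bipolar-like nuclei, and at 109, 95.1, 98.7 and 85.2 CPM in OFF cone bipolar-like nuclei. The ON cone bipolar-like level was called higher than the OFF level, at 2.99-fold (2.47 to 3.64). The rod bipolar-like level was 2.39-fold that of OFF cone bipolar-like nuclei (1.95 to 2.93), without a call. Its highest level was in photoreceptors, where rod-like nuclei had 1585 CPM (1557 to 1614) and cone-like nuclei 909 CPM (866 to 953). Beside this stands the summed level of the rod marker list, which was 189 CPM in rod bipolar-like, 785 CPM in ON cone bipolar-like and 288 CPM in OFF cone bipolar-like nuclei, with all 12 markers seen in each. The part of rod RNA in the Gnb5 level of ON cone bipolar-like nuclei was not tested. The call was lost in more of the alternatives than that of any other member: it was absent with a ratio of bounds of 3, with 15 principal components, with the cascade genes kept for clustering, with thinning, within the retinal band alone, with at least 500 genes and without the subclusters on a margin of 1 marker.

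**Figure D2:**
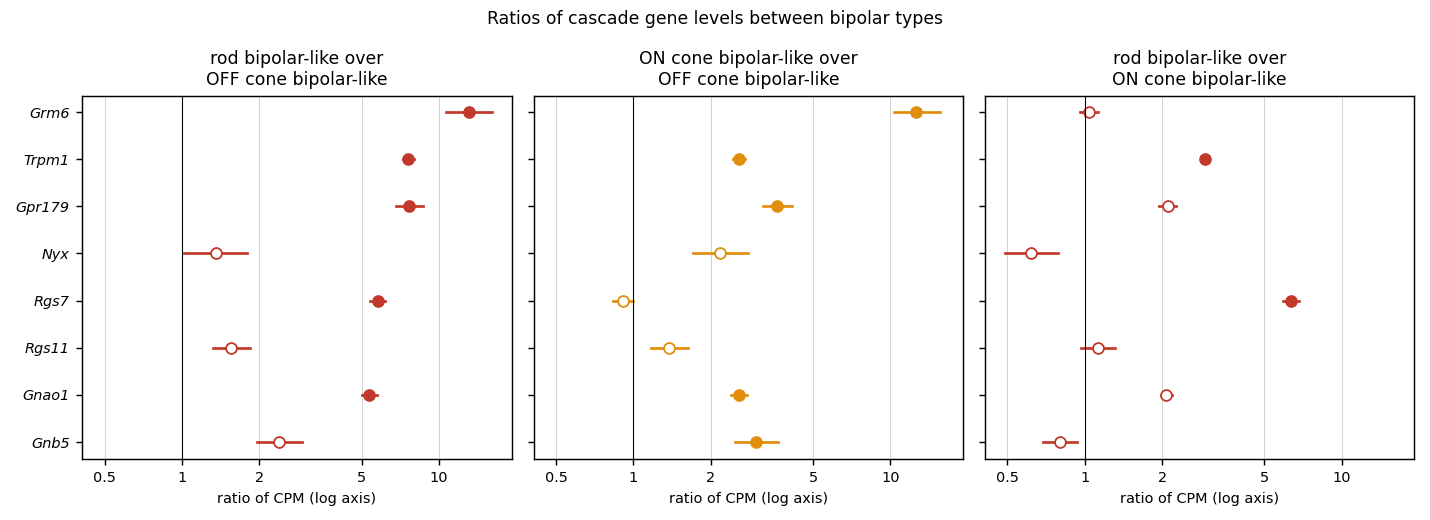
Ratio of pooled CPM (horizontal axis, log scale) between pairs of bipolar types for the 8 members with at least 20 UMIs, with 95% intervals of the ratio. Filled points passed the call rule; the Grm6 points of both ON types over OFF cone bipolar-like nuclei lie at 13.0 and 12.6, while Rgs7 lies at 5.76 for rod bipolar-like and 0.911 for ON cone bipolar-like nuclei.

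Counted over the cascade, 5 of the 8 members tested were called higher in rod bipolar-like than in OFF cone bipolar-like nuclei (Grm6, Trpm1, Gpr179, Rgs7 and Gnao1) and 0 lower. Over all features tested in that comparison, 3.01% were called higher and 8.23% lower. The median ratio was 5.55 over the members and 0.912 over all features. In ON cone bipolar-like against OFF cone bipolar-like nuclei, 5 of 8 were called higher (Grm6, Trpm1, Gpr179, Gnao1 and Gnb5) and 0 lower, beside 1.69% higher and 2.33% lower among all features. Here the median ratio was 2.57 over the members and 1.01 over all features. Without the 3 subclusters named on a margin of 1 marker, Trpm1 and Gnb5 dropped out and 3 members were called. In rod bipolar-like against ON cone bipolar-like nuclei, 2 of 8 were called higher (Trpm1 and Rgs7) and 0 lower, beside 2.53% higher and 7.05% lower among all features. The 3 comparisons share their nuclei, so their calls are not independent of each other.

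Detection of members in the same nuclei was read as well. Grm6 and Trpm1 both had a UMI in 86.5% of rod bipolar-like and 78.5% of ON cone bipolar-like nuclei, against 8.04% of OFF cone bipolar-like nuclei. A median of 6 of the 9 members was detected per nucleus in both ON types, against 3 in OFF cone bipolar-like nuclei. Grm6 without Trpm1 was rare in all 3: 0.249% of rod bipolar-like, 2.60% of ON cone bipolar-like and 0.893% of OFF cone bipolar-like nuclei. These shares depend on those of each gene alone. In the same order of types, Grm6 was seen in 86.8%, 81.1% and 8.93% of nuclei and Trpm1 in 98.8%, 95.7% and 71.2%. Whether the 2 genes met in a nucleus more often than these shares give was not tested. Rod bipolar-like nuclei as a whole held 10.7 Trpm1 UMIs per Grm6 UMI (10.1 to 11.4) and ON cone bipolar-like nuclei 3.77 (3.54 to 4.01), against 18.5 (15.2 to 22.7) in OFF cone bipolar-like nuclei.

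Within the ON cone bipolar-like class the 6 subclusters differed widely, so that the class value is an average over unlike groups. Subcluster 1 (131 nuclei), led by Grin3a and Cck, had the most Grm6 and Trpm1, at 1388 and 6196 CPM. It was named on a margin of 1 marker. Subcluster 4 (55 nuclei) had 545 CPM of Grm6 and 984 CPM of Trpm1, with the highest Nyx level of the subclusters, 255 CPM, and the lowest Rgs7 level, 88.9 CPM from 15 UMIs. Subclusters 6, 10 and 14 lay between these for Grm6, at 841, 1040 and 715 CPM, and for Trpm1, at 3115, 3182 and 2231 CPM.

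Subcluster 15 (28 nuclei, led by Kirrel3 and Kcnd2) stood apart. It carried the ON markers, yet Grm6 came to 4 UMIs or 42.6 CPM, within the range of the OFF subclusters (20.4 to 118 CPM). Its Trpm1 (1405 CPM), Gpr179 (745 CPM), Nyx (128 CPM) and Gnao1 (1415 CPM) lay within the range of the other ON subclusters. Rgs7 was above all of them at 1894 CPM, and Rgs11 below them at 53.2 CPM from 5 UMIs.

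The OFF cone bipolar-like subclusters also differed. Subcluster 9 (106 nuclei, led by Neto1 and Ebf1) had 2280 CPM of Trpm1, 458 CPM of Gpr179 and 138 CPM of Nyx, with Grm6 at 112 CPM. Subcluster 8 (58 nuclei) had 174 CPM of Trpm1, 64.5 CPM of Gpr179 and 4.96 CPM of Nyx. Trpm1 in subclusters 7, 11 and 13 was at 668, 1684 and 905 CPM. Trpm1 in subcluster 9 therefore lay above that of the ON cone bipolar-like subclusters 4 and 15 and overlapped that of subcluster 14, while Grm6 in every OFF subcluster was below that of every ON subcluster except subcluster 15.

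The reverse pattern was seen in subcluster 12 (61 nuclei). It remained unnamed because it had only 2 ON and 2 OFF markers, below the 3 that a name required. Its leading genes were Bmpr1b, Adarb2, Brinp3, Stard13 and Chrm2. Grm6 was at 381 CPM (55 UMIs), Gpr179 at 740 CPM, Nyx at 166 CPM and Gnao1 at 941 CPM, while Trpm1 was at 76.1 CPM (11 UMIs). It held 0.200 Trpm1 UMIs per Grm6 UMI (0.0944 to 0.386), below the 3.77 of ON cone bipolar-like nuclei. Grm6 without Trpm1 was seen in 29 of its 61 nuclei, 47.5%. Thinned to 500 UMIs, 23.3% of its nuclei had a Grm6 UMI and 5% a Trpm1 UMI. Isl1 was at 215 CPM and Grik1 at 284 CPM in these nuclei, levels within the ranges of the ON cone bipolar-like subclusters. The cone marker list summed to 3363 CPM there, with 7 of 12 markers seen, against 447 CPM in ON cone bipolar-like and 16143 CPM in cone-like nuclei. Thrb (285 UMIs, 1972 CPM) and Cngb3 (184 UMIs, 1273 CPM) carried that sum, Gnat2 had 11 UMIs and Kcne2 3, and the cone opsins Opn1sw and Opn1mw and Gngt2 had 1 UMI each. Arr3, Pde6h, Pde6c, Cnga3 and Guca1a were at 0. Arr3, the cone arrestin, was at 4053 CPM in cone-like nuclei. The part of cone RNA in the members' values was not tested. The nuclei of subcluster 12 lay at a median depth of 460 units inside the pigment epithelium.

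**Figure D3:**
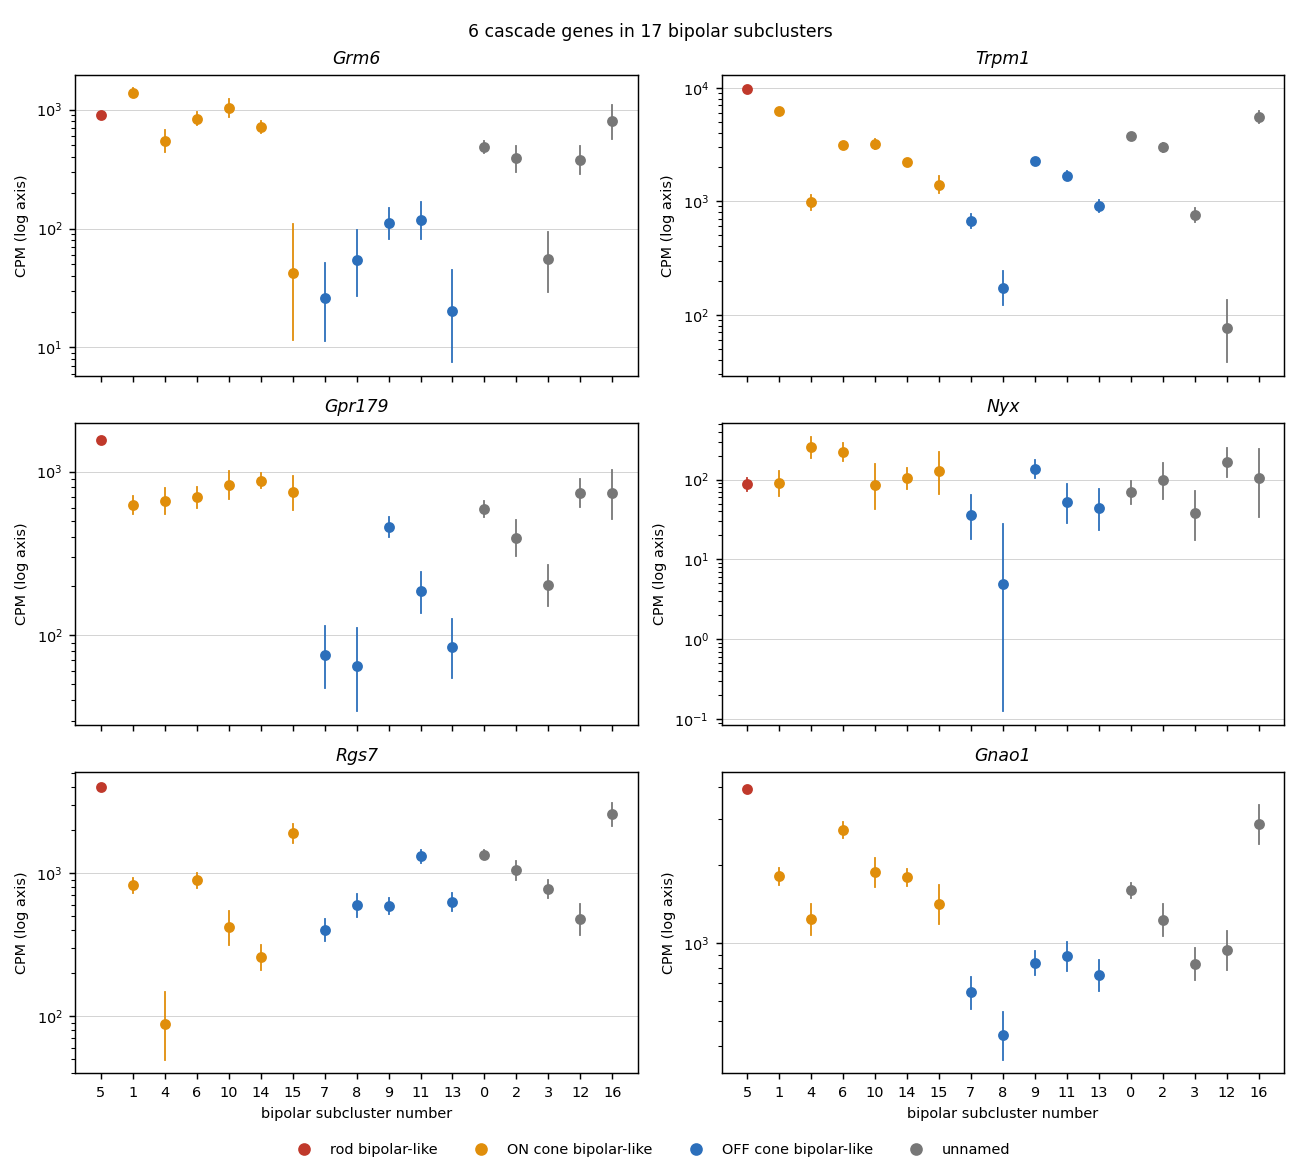
Level of Grm6, Trpm1, Gpr179, Nyx, Rgs7 and Gnao1 (CPM, log scale) in the 17 subclusters of bipolar nuclei, with exact Poisson 95% intervals; colours give the named type. Subcluster 15 has an ON name with Grm6 at 42.6 CPM, and unnamed subcluster 12 has Grm6 at 381 CPM with Trpm1 at 76.1 CPM.

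Outside the bipolar types, Trpm1 was highest in melanocyte-like nuclei. These 233 nuclei had 1319, 2090, 1281 and 1056 CPM in pieces 1 to 4, against 202, 181, 53.2 and 29.4 CPM in the 657 RPE-like nuclei. The ranges did not overlap. Pooled, Trpm1 was at 1449 CPM (1348 to 1556, 763 UMIs) in melanocyte-like and 108 CPM (98.0 to 120, 395 UMIs) in RPE-like nuclei, a 13.4-fold difference (11.8 to 15.1) that was called. A Trpm1 UMI was seen in 64.8% of melanocyte-like nuclei (median 1953 UMIs), against 15.8% of RPE-like nuclei (median 2958 UMIs). Thinned to 500 UMIs the shares were 36.9% and 2.92% in the same order, beside 0.909% in rod-like nuclei. The thinned RPE-like share lay within the range of the other classes outside the bipolar types. It was below those of horizontal-like (11.1%), surface epithelium-like (8.77%), Müller glia-like (4.73%), lens-like (4.21%) and skeletal muscle-like nuclei (3.08%). All the remaining named classes outside the bipolar types, melanocyte-like nuclei apart, were below the RPE-like share. The melanocyte-like level was close to that of OFF cone bipolar-like nuclei, with a ratio of 1.13 (1.03 to 1.23) and no call. Of the 4 pieces, only that with 2090 CPM had melanocyte-like nuclei above OFF cone bipolar-like nuclei.

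Against OFF cone bipolar-like nuclei, 4 of the 8 members tested were called lower in melanocyte-like nuclei (Gpr179, Nyx, Rgs7 and Rgs11), beside 9.78% of all features, and 0 higher, beside 11.6%. Gpr179 had 4 UMIs in melanocyte-like nuclei and Nyx 1. Gnao1 was at 325 against 738 CPM (ratio 0.440, 0.372 to 0.518), Gnb5 at 158 against 97.8 CPM (1.61, 1.22 to 2.12) and Grm6 at 24.7 against 69.7 CPM (0.354, 0.183 to 0.633), each without a call. Melanocyte-like nuclei held 58.7 Trpm1 UMIs per Grm6 UMI (34.1 to 111), and RPE-like nuclei 32.9 (18.6 to 64.2), against 10.7 in rod bipolar-like nuclei. The RPE interval overlapped that of OFF cone bipolar-like nuclei, 18.5 (15.2 to 22.7). In the other named classes with a Grm6 UMI the ratio was 3.67 to 10.6. Against RPE-like nuclei, 3 of 8 members were called higher (Trpm1, Grm6 and Rgs7), beside 11.7% of all features, and 2 lower (Lrit3 and Gnao1), beside 6.1%. The Grm6 call rested on 13 UMIs in melanocyte-like and 12 in RPE-like nuclei, and 1 nucleus of piece 4 held 11 of the 13. For Rgs7, 1 nucleus held 14 of the 25 UMIs of melanocyte-like nuclei, against 17 of the 41 UMIs of RPE-like nuclei in 1 nucleus.

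Trpm1 in RPE-like nuclei differed between pieces and rested on few nuclei. Nuclei with at least 5 Trpm1 UMIs numbered 14 of 135 in piece 1, 7 of 154 in piece 2, 3 of 126 in piece 3 and 1 of 242 in piece 4. The 5 nuclei with the most Trpm1 held 26.3% of the UMIs of RPE-like nuclei and 19.8% of those of melanocyte-like nuclei, against 3.10% in rod bipolar-like nuclei. Both RPE clusters showed a spread, cluster 4 on few UMIs. Cluster 38 was at 189, 193, 52.6 and 33.3 CPM in pieces 1 to 4. Cluster 4 was at 297, 81.1, 61.4 and 11.1 CPM, from 30, 7, 4 and 2 UMIs, and the intervals of its pieces 2 to 4 overlapped. Beside this stand the marker lists that were used to name other classes. The melanocyte list summed to 1435, 1353, 1188 and 1160 CPM in RPE-like nuclei of pieces 1 to 4, with 9, 10, 10 and 9 of 11 markers seen, Pax3 at 0 in all 4 and Ednrb at 0 in pieces 1 and 4. Over all RPE-like nuclei the sum was carried by Oca2 (464 CPM), Dct (258 CPM), Tyr (245 CPM) and Sox10 (229 CPM), while Pmel was at 21.4 CPM and Mlana at 6.31 CPM. Dct, an enzyme of melanin synthesis, was at 353, 370, 225 and 126 CPM in pieces 1 to 4, while Oca2 was at 433, 427, 434 and 546 CPM. In the 25 RPE-like nuclei with at least 5 Trpm1 UMIs the melanocyte list summed to 2653 CPM, against 1267 CPM in the 79 with 1 to 4 and 1134 CPM in the 553 with none. It summed to 17554 CPM in melanocyte-like nuclei. Across these groups of RPE-like nuclei, in the same order, the bipolar list summed to 1469, 1480 and 1406 CPM. Grm6 had 7, 1 and 4 UMIs in them, and their median UMIs per nucleus were 5741, 5314 and 2373. Bipolar markers summed to 1036, 2121, 1387 and 1290 CPM in RPE-like nuclei of the 4 pieces. Over the named classes outside the bipolar types this sum ran from 471 CPM in skeletal muscle-like to 2665 CPM in rod-like nuclei. Whether RPE-like nuclei express genes of these lists themselves was not tested, nor was the part of RNA from other cells in the RPE level. Leaving out pieces moved the RPE value between 79.1 CPM (without piece 1) and 139 CPM (without piece 4).

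**Figure D4:**
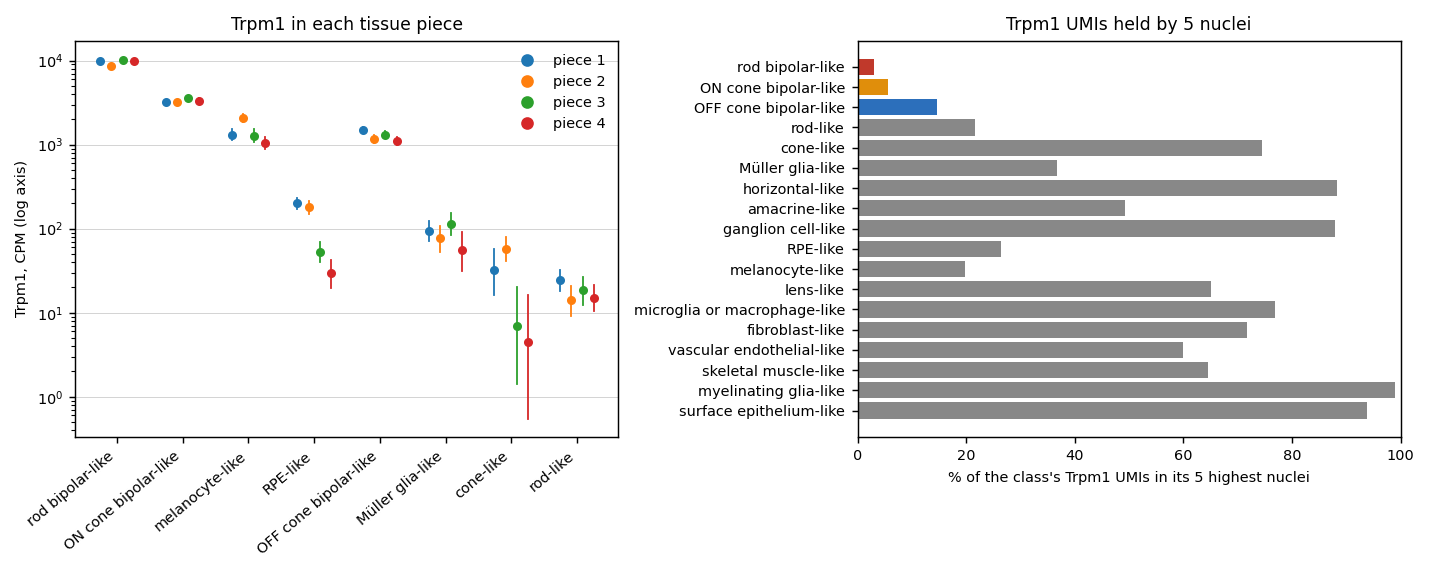
Left, Trpm1 level (CPM, log scale) in each of the 4 tissue pieces for 8 classes with exact Poisson 95% intervals: melanocyte-like nuclei lie at 1056 to 2090 CPM and RPE-like nuclei at 29.4 to 202 CPM. Right, share of each class's Trpm1 UMIs (percent) held by the 5 nuclei with the most, 3.10% in rod bipolar-like and 99.0% in myelinating glia-like nuclei.

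In several further classes Trpm1 rested almost wholly on a handful of nuclei. Horizontal-like nuclei had 323 CPM, surface epithelium-like 301 CPM and myelinating glia-like 207 CPM, and the 5 nuclei with the most held 88.3%, 93.8% and 99.0% of those UMIs. In ganglion cell-like nuclei, at 39.2 CPM, they held 88.0%. In lens-like nuclei, at 189 CPM, they held 65.1%, with a UMI in 17.5% of nuclei. In Müller glia-like nuclei, at 87.9 CPM, they held 36.7%. The lowest level was in rod-like nuclei, at 17.9 CPM. In cone-like nuclei Trpm1 was at 29.0 CPM, and at 13.1 CPM without piece 2.

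The remaining members were also seen outside the bipolar types, in part in the same classes. Over all 16 other named classes, a bipolar type was called higher than every one of them for 5 of the 9 members (Grm6, Trpm1, Gpr179, Rgs7 and Gnao1), beside 1.19% of all features. Gpr179 came next in Müller glia-like nuclei, at 106 CPM (90.8 to 123), and was at 168 CPM in amacrine cluster 36, led by Megf11 and Chat, against 1.88 to 15.1 CPM in the other 3 amacrine clusters. Nyx came next in lens-like nuclei, at 44.5 CPM (31.0 to 61.9), which overlapped OFF cone bipolar-like nuclei; 34 of those 35 UMIs came from lens cluster 30. Rgs7 came next in horizontal-like (909 CPM), adipocyte-like (799 CPM) and ganglion cell-like nuclei (728 CPM), and amacrine-like nuclei had 634 CPM. Both cone bipolar types lay among these, with overlapping intervals from neighbour to neighbour. Rgs7 was also at 432 CPM in cone-like nuclei, against 6.70 CPM in rod-like nuclei. Rgs11 was at 222 CPM in horizontal-like nuclei, with a UMI in 79.6% of them (median 6926 UMIs), a level that overlapped those of ON and OFF cone bipolar-like nuclei, and at 86.6 CPM in ganglion cell-like nuclei. In rod-like nuclei 0.279% had an Rgs11 UMI. Gnao1 reached 948 CPM in RPE-like nuclei and 852 CPM in ganglion cell-like nuclei. Müller glia-like nuclei had 816 CPM (773 to 861), which overlapped the 738 CPM (695 to 783) of OFF cone bipolar-like nuclei. Gnb5 in rod-like nuclei was at 1538, 1458, 1454 and 1813 CPM in pieces 1 to 4, and in cone-like nuclei at 781, 857, 895 and 1101 CPM. Its overlapping neighbours Myo5c and Gm19531 were at 0.402 and 2.01 CPM in rod-like nuclei.

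Position on the chip was not used to name the classes. Depth is counted in units of the deposited coordinates, which the sources used here do not convert to a length, inward from the ring of RPE-like nuclei. Of the nuclei with a depth, 65.3% of rod bipolar-like, 63.5% of ON cone bipolar-like and 69.0% of OFF cone bipolar-like nuclei lay in the retinal band from -100 to 1000 units, at median depths of 358, 411 and 394 units. Within the same band, rod-like nuclei lay at a median of 153 units and melanocyte-like nuclei at -36.5 units, outside the ring. Over all nuclei of the band, whatever their class, Grm6 was highest in the bin from 200 to 300 units, at 203 CPM (188 to 219), against 11.5 CPM in the outermost bin. Trpm1 (1574 CPM), Gpr179 (307 CPM), Nyx (35.5 CPM) and Rgs11 (95.9 CPM) had their highest bin at the same depth. Lrit3 had its highest bin nearer the pigment epithelium, from 0 to 100 units (108 CPM), and Gnb5 from 100 to 200 units (1033 CPM). For Nyx, Rgs11 and Lrit3 the interval of that bin overlapped that of another bin. Rgs7 (772 CPM, 744 to 801) and Gnao1 (989 CPM, 957 to 1021) had their highest value from 400 to 500 units. That of Rgs7 overlapped the bin from 800 to 900 units (765 CPM, 716 to 817) and that of Gnao1 the bin from 200 to 300 units (949 CPM, 917 to 983). Trpm1 had a second rise in the outermost bin, at 256 CPM, above the 143 CPM of the bin from 0 to 100 units, whereas Grm6 was at 11.5 and 13.2 CPM in these 2 bins.

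**Figure D5:**
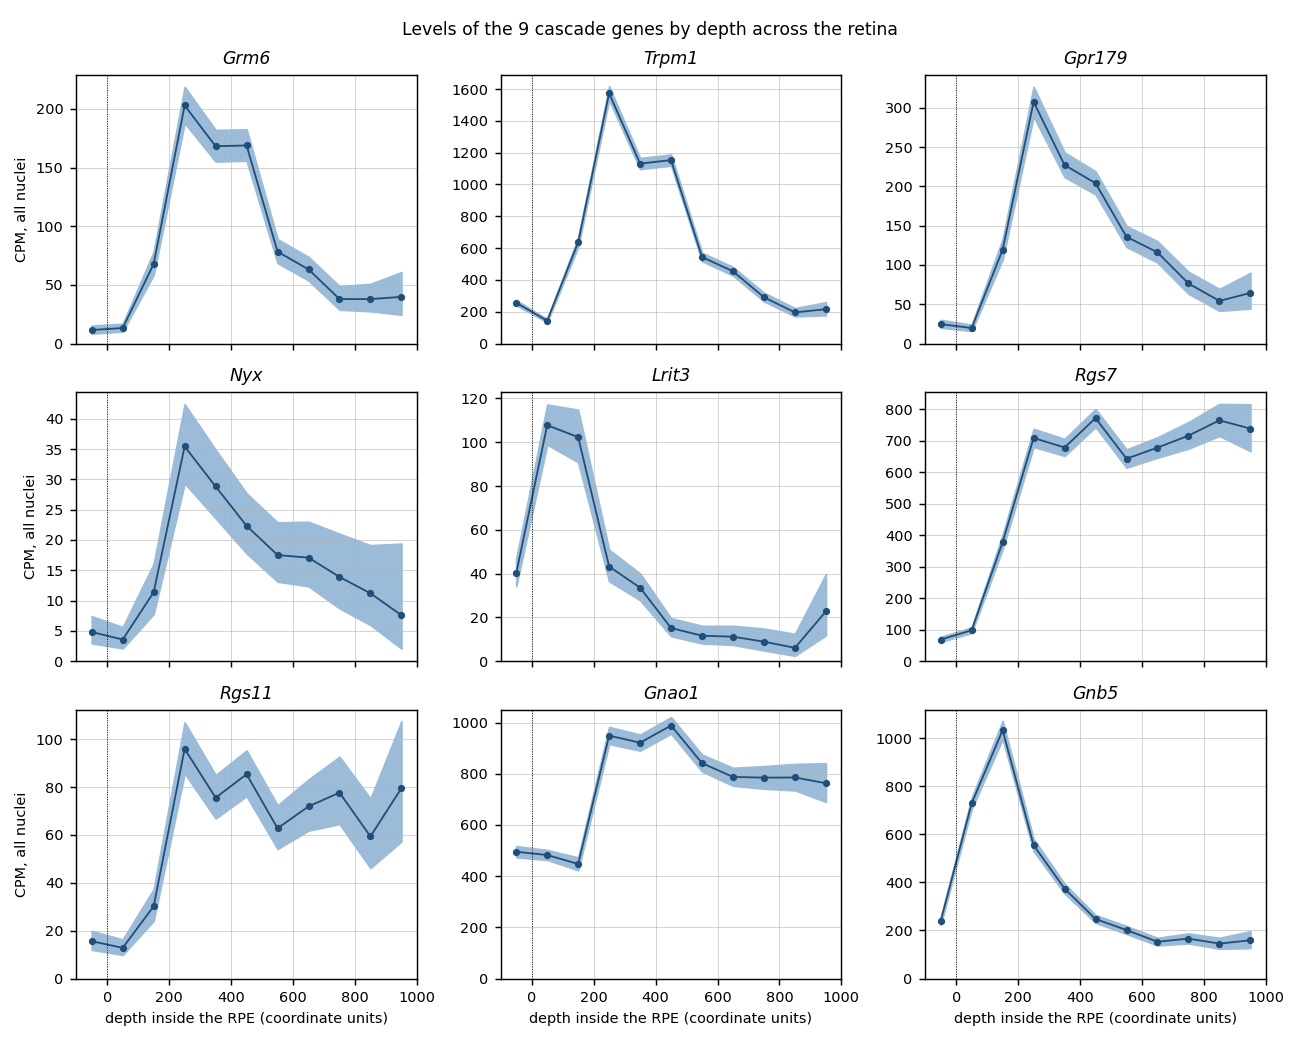
Level of each cascade gene over all nuclei (CPM) by depth inside the ring of RPE-like nuclei (100-unit bins of the deposited coordinates, -100 to 1000), with shaded exact Poisson 95% intervals. Grm6, Trpm1, Gpr179, Nyx and Rgs11 are highest from 200 to 300 units, Lrit3 from 0 to 100 units, Gnb5 from 100 to 200 units and Rgs7 and Gnao1 from 400 to 500 units, where their intervals overlap those of other bins.

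A list of 35 related genes (other G protein subunits, RGS proteins and partners, glutamate receptors, TRPM channels and synaptic partners) was read in the same way. In rod bipolar-like against OFF cone bipolar-like nuclei, 5 of 26 tested were called higher and 5 lower, beside 3.01% and 8.23% of all features. The median ratio was 0.960, beside 0.912 over all features. Gnb3, the G protein beta subunit that pairs with Go in ON bipolar cells, was higher at 522 against 99.9 CPM (5.22-fold, 4.37 to 6.28). Pcp2, a modulator of Go, was at 639 against 89.1 CPM (7.17-fold, 5.96 to 8.68). Cacna1s, the calcium channel subunit whose antibodies stain these dendritic tips, was at 91.7 against 12.7 CPM (7.20-fold, 4.41 to 12.4). The lower genes included Trpm3, another TRPM channel, at 49.8 against 1665 CPM (ratio 0.0299, 0.0229 to 0.0384), and Gnb1, the beta subunit of rod transducin, at 19.8 against 107 CPM (ratio 0.185, 0.116 to 0.284). Rgs6, Gpr158 and Gnaz were the other lower genes, at ratios of 0.211, 0.247 and 0.110.

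In ON cone bipolar-like against OFF cone bipolar-like nuclei, 2 of 28 related genes were called higher and 1 lower, beside 1.69% and 2.33% of all features. Gnb3 was at 495 against 99.9 CPM (4.96-fold, 4.15 to 5.96) and Trpm3 at 150 against 1665 CPM (ratio 0.0900, 0.0780 to 0.103). In rod bipolar-like against ON cone bipolar-like nuclei, 2.53% of all features were called higher and 7.05% lower. Of the related genes, 1 of 27 was higher (Pcp2, 639 against 169 CPM, 3.79-fold, 3.28 to 4.39) and 5 were lower. Elfn1, an adhesion protein with which rods recruit mGluR6, was among these at 2 against 30 UMIs, and Grm8, an inhibitory glutamate receptor, was at 9.48 against 59.4 CPM (ratio 0.160, 0.0794 to 0.293). Gnb1, Gpr158 and Trpm3 were the other 3, at ratios of 0.258, 0.309 and 0.332. The calls not given above, chosen after their values were seen, were Gng13 (257 against 85.1 CPM in rod bipolar-like against OFF cone bipolar-like nuclei) and Grm5 (1260 in rod bipolar-like and 1333 in ON cone bipolar-like, against 460 CPM in OFF cone bipolar-like nuclei).

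Over the 19 classes, the features whose log2(CPM + 1) correlated most with that of Grm6 were Kcnmb2 (Pearson r = 0.904), Gng13 (0.890), Gm14343 (0.888), Pcp2 (0.886) and Gm30382 (0.875). Those nearest to Trpm1 were C230024C17Rik (0.908), Gm9195 (0.881), Rpa1 (0.878), Dbhos (0.873) and Gm30725 (0.864). Rpa1 is one of the markers that named the rod bipolar-like class. The points come from the same count matrix and differ in depth, and the values are a description of these 19 classes. Kcnmb2 differed from Grm6 in its order between the bipolar types. It was at 1132 CPM in rod bipolar-like and 207 CPM in ON cone bipolar-like nuclei, against 402 CPM in OFF cone bipolar-like nuclei. Gng13 had the order of Grm6, at 257 and 218 CPM, against 85.1 CPM.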

How the data were processed

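The 9 cascade genes, the marker lists and the related genes were chosen with earlier results of these data known. Raw UMI counts per gene and barcode were deposited by the authors as a matrix of whole numbers; positions were deposited in other units, 1 point per barcode, per the file headers. Per the submitters' processing notes, the tools were fastp, STAR and Seurat 4.1.1, on mm10. The role of each tool was not given in the sources used here, nor were the annotation release, cell calling, strandedness or intron counting. Per the labels' protocols, nuclei were isolated after the section was lysed on the capture chip. All 17285 barcodes had a position, and the matrix held 55843593 UMIs (median 1771 per barcode).

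Nuclei were kept with at least 200 genes and under 10% mitochondrial UMIs. Clustering used 2000 variable genes without the members and the 35 related genes, 30 principal components, 15 neighbours and Leiden resolution 1 (seed 1), giving 43 clusters, 10 of them unnamed, and 17 bipolar subclusters, 5 of them unnamed. A cluster was named where its best marker list scored at least 0.5, the next list scored at most 0.48 of that, and at least 3 markers were 2-fold up; a bipolar subcluster with 5 or more markers of another class stayed unnamed. These naming rules were set after the clusters had been seen. Named genes were all 9 members, the related genes called between bipolar types (at most 10, by size of ratio) and the 5 features most correlated with Grm6 and with Trpm1. The correlated features were taken from those that are not members and had at least 20 UMIs in the bipolar types. CPM divides the summed UMIs of a gene by the total of the class; its 95% intervals are exact Poisson ones, those of shares exact binomial and those of ratios exact conditional binomial. A share or level of 0 was bounded at 3 counts. The call rule was tested on simulated data. The 2 libraries of the section, of expression and of spatial barcodes, belong to no group and the counts have no replicate, so no p-value was computed. Alternatives were other resolutions, 15 components, members kept for clustering, at least 500 genes, means over nuclei, thinning to 500 UMIs, other totals, each piece left out, no nuclei of high Scrublet score, and other call rules. Tools were scanpy 1.11.5 with igraph 0.11.9 and scikit-learn 1.9.0, scipy 1.17.1, pandas 2.3.3, numpy 2.4.6, anndata 0.12.19 and matplotlib 3.10.9 under python 3.11.15.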

Additional observations from a re-analysis of the deposited data

How the results depend on the processing

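Over 855 alternative values for 50 results, 703 stayed within their interval or within 1.5 times the count and 152 moved. These are counts and levels, with no direction of their own. The order of classes turned for Grm6 in rod bipolar-like against ON cone bipolar-like nuclei when thinned (838 against 889 CPM). For Trpm1, melanocyte-like nuclei fell below OFF cone bipolar-like nuclei without the subclusters named on a margin of 1 marker (1449 against 1706 CPM). They also did so without piece 2, at 1217 CPM. Neither pair had a call. The number of members called higher in rod bipolar-like than in OFF cone bipolar-like nuclei stayed at 5 except for 7 with a ratio of bounds of 1. The number called higher in ON cone bipolar-like than in OFF cone bipolar-like nuclei ran from 2 with a ratio of bounds of 3 to 7 with a ratio of bounds of 1. It was 3 with nuclei of at least 500 genes. It was also 3 without the 3 subclusters named on a margin of 1 marker, an alternative chosen after seeing the data. With 15 principal components, with the cascade genes kept for clustering, with thinning and in the retinal band alone it was 4. Members high in bipolar nuclei ranged from 5 to 7, the highest in the retinal band alone with 9 other classes of at least 50 nuclei, also chosen after seeing the data. Trpm1 in melanocyte-like nuclei was at 1318 CPM as a mean over nuclei, 1290 CPM thinned, 1217 CPM without piece 2, 1586 CPM without piece 4 and 1236 CPM in the band alone. Trpm1 in RPE-like nuclei was at 143 CPM as a mean over nuclei, 84.4 CPM thinned, 132 CPM with totals that leave out mitochondrial genes and Gm42418, 79.1, 89.6, 129 and 139 CPM without pieces 1, 2, 3 and 4, 82.2 CPM without the 5% of highest Scrublet scores and 91.2 CPM in the band alone. The cause of these moves was not tested. Values of Nyx, Lrit3 and of cone-like nuclei that rest on few UMIs moved by over 1.5 times in several settings. No paired analysis was possible because neither sample is assigned to a group. The labels speak of 1 section of 1 eye and tie no piece to an animal, so the intervals hold no spread between animals.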

Other observations

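Cluster 39 (86 nuclei), which remained unnamed and was led by Gfap, Stac, Slc4a4 and Pax2, had Trpm1 at 905 CPM (811 to 1008, 334 UMIs) with 2 Grm6 UMIs. The 5 nuclei with the most held 51.2% of those UMIs, and a Trpm1 UMI was seen in 47.7% of the nuclei. The melanocyte list summed to 2697 CPM there, with 10 of 11 markers seen and Pax3 at 0, against 17554 CPM in melanocyte-like nuclei. Dct alone, at 1591 CPM, carried most of that sum in cluster 39, and Tyr was next at 220 CPM. Slc45a2 was at 8.13 CPM and Sox10 had 1 UMI. The part of melanocyte RNA in the Trpm1 level of cluster 39 was not tested.

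Cluster 9 (382 nuclei, median 8383 UMIs) carried markers of both bipolar cells and Müller glia and was left out of the bipolar types. Trpm1 was at 2312 CPM and Grm6 at 320 CPM in it, which is 7.22 Trpm1 UMIs per Grm6 UMI (6.85 to 7.63). Cluster 6 (859 nuclei), also unnamed, held 199 Trpm1 UMIs with 5 Grm6 UMIs, a ratio of 39.8 (16.8 to 124). Sox10, a transcription factor of the neural crest, was at 229 CPM in RPE-like nuclei, with 289, 210, 247 and 176 CPM in pieces 1 to 4, and at 794 CPM in melanocyte-like nuclei, while it had 0 UMIs in all 3 bipolar types.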
